A study of Schizosaccharomyces pombe with 6 samples.

Results

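The silencing genes described here are 10 protein-coding genes of fission yeast (Schizosaccharomyces pombe) that act in RNA interference (RNAi) and heterochromatin formation: clr4, rik1, swi6, ago1, chp1, tas3, dcr1, rdp1, clr1 and clr3. They were chosen by name out of 6986 features in the deposited count table, and each name matched a single row as a common name. The name rdp1 also stood among the other names of deb1, which made 11 matching rows. The deposited annotation calls deb1 a transcription factor, and it was kept apart from the 10.

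The RNA came from vegetative cells that grew exponentially at 30 °C in the rich medium YES. Of the 6 polyadenylated RNA libraries, 3 came from the wild type, h+ rpb1-CTD-WT29::NatMX, and 3 from the mutant, which carries the allele seb1-G476S (also called STF19) with rpb1-CTD-WT29::KanMX. Both strains are h+ and share the allele rpb1-CTD-WT29. The drug marker at rpb1 differs together with the seb1 allele, so their effects cannot be told apart here. Seb1 is an RNA-binding protein needed for transcription termination by RNA polymerase II. It has also been reported to promote heterochromatin assembly by a route separate from RNAi. By its title, the series follows a screen in which a gain-of-function mutation of seb1 suppressed transcription interference by long non-coding RNAs. The libraries of a group are described as biological replicates, and the wild-type ones, from an earlier deposit, as sequenced in the same run.

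In fission yeast, heterochromatin covers the centromere repeats, the telomere-proximal regions and the silent mating-type region. Clr4 methylates lysine 9 of histone H3 there, and chromodomain proteins bind the methylated tail. At the centromeres, transcripts of the repeats are made double-stranded by the RNA-directed RNA polymerase complex (RDRC) and cut by Dicer. The small RNAs load onto Argonaute in the RITS complex, which brings the Clr4 complex (CLRC) back to the repeats. SHREC, a histone deacetylase complex, then limits transcription of the silenced DNA.

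The 6 libraries held between 21013941 and 27910803 counts. Wild-type replicate 3 stood apart most within its group, with correlations of log2 levels of 0.991 and 0.993 to the other wild-type libraries, against 0.996 between those. Of 4 listed markers of P cells, the mating type of h+ strains, map2 and map3 were found and were counted in every library. The others, mat1-Pc and mat1-Pi, were not found by name. The summed level of map2 and map3 was 33.8 to 41.8 CPM in the wild type and 64.3 to 75.5 CPM in the mutant. The rise lay in map3, at 65.3 against 31.8 CPM, while map2 was at 5.22 against 4.94 CPM. Of 7 listed M cell markers, mat1-Mc and mat1-Mi had 0 counts in every library. Reads shared with the silent copies of these genes may have gone uncounted, so these 0 counts are uncertain. The other M markers were counted in every library, with mam1 at 35.6 to 42.3 CPM and mam2 at 10.8 to 27.4 CPM. In edgeR's test mfm1 and mam2 were higher in the mutant at an adjusted p under 0.05, and mfm2, mfm3 and mam1 did not pass. The summed level of the list was 54.0 to 64.2 CPM in the wild type and 59.9 to 67.1 CPM in the mutant. The part of mating type in the results was not tested. The seb1 mRNA was higher in the mutant, at 357 against 120 CPM. Counts per gene hold no base of the transcript and do not check the allele.

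Among the 10 silencing genes, ago1 was higher in the mutant and swi6, rdp1, clr1 and chp1 were lower, at an adjusted p under 0.05. The other 5, clr4, rik1, tas3, dcr1 and clr3, did not pass. Across all 6046 features tested, 26.7% were called higher and 28.4% lower, so a call of 5 genes among 10 was near the background of 55% of features called either way. Among the 4952 coding genes tested, 24.3% were called higher, 31.5% lower and 55.8% either way. The groups of libraries did not overlap in 6 of the 10 genes, 1 above and 5 below, against 63.9% of all features and 64.4% of coding genes (28.7% above and 35.7% below). The median log2 fold change of the 10 genes was -0.20, against -0.0078 over all features. The counts therefore show nothing particular to the set, and the values of the single genes follow by role. Levels are CPM, the count of a gene relative to the scaled total of its library,, and fold changes are mutant over wild type from edgeR's quasi-likelihood test, with standard errors (SE). In RNA from whole cultures, fewer cells with a transcript and less transcript per cell cannot be told apart.

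**Figure D1:**
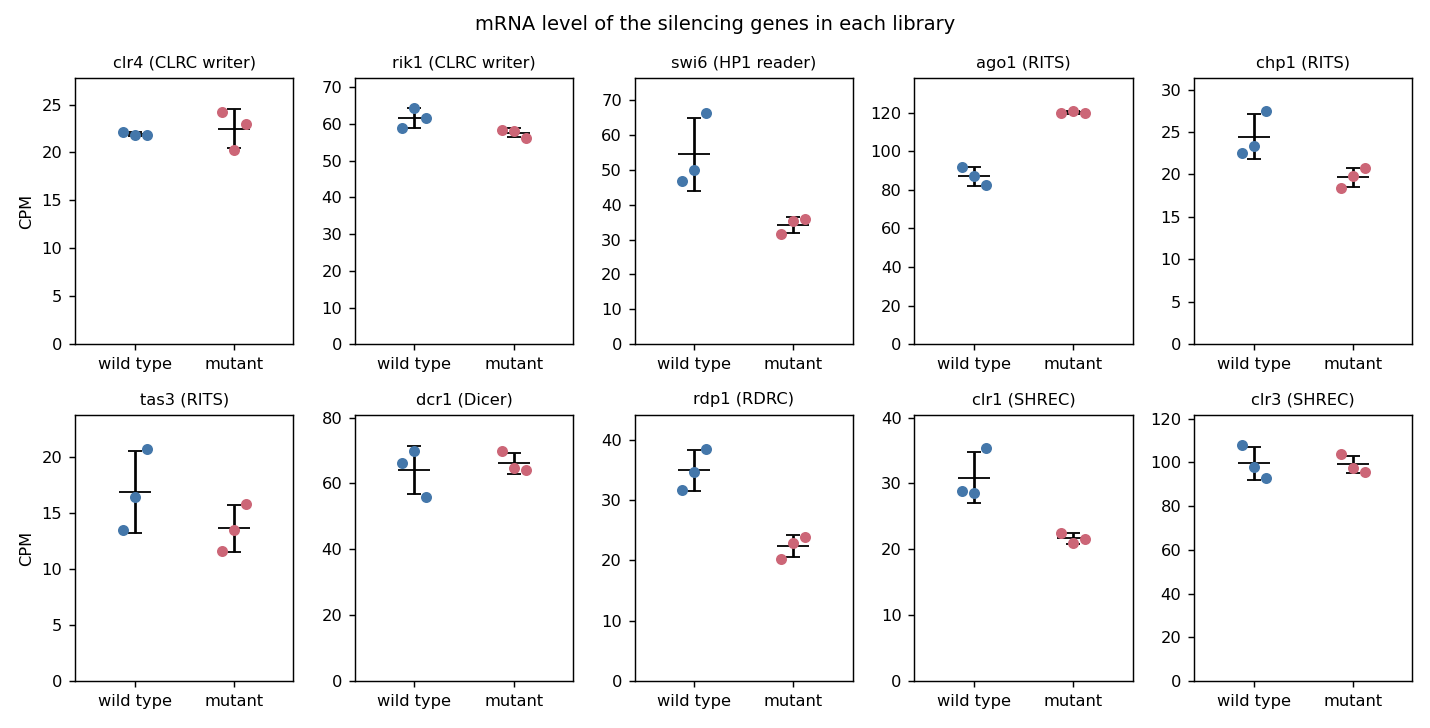
Level of each silencing gene in CPM (vertical axis, from 0) in the 3 wild-type and 3 mutant libraries, 1 point per library, with the mean (dash) and SD (bar) of each group. The mutant points of ago1 lie near 120 CPM above all wild-type points, while those of swi6, chp1, rdp1, clr1 and rik1 lie below all wild-type points.

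The genes for the writer of the mark did not pass the test. The methyltransferase gene clr4 (SPBC428.08c, chromosome II) stood at 22.2, 21.8 and 21.8 CPM in wild-type replicates 1 to 3 and at 24.3, 20.3 and 23.0 CPM in mutant replicates 1 to 3. The wild-type libraries lay within the range of the mutant ones. The log2 fold change of clr4 was 0.035 (SE 0.107, adjusted p = 0.795), with a 95% interval of -0.20 to 0.27, which spans folds of 0.868 to 1.21. The gene rik1 (SPCC11E10.08, chromosome III) encodes a WD repeat scaffold of CLRC, the ubiquitin ligase complex that holds Clr4. It was at 59.0, 64.2 and 61.7 CPM in the wild type and at 58.5, 58.2 and 56.3 CPM in the mutant. All mutant libraries of rik1 lay just below all wild-type ones, an arrangement found in 32.6% of all tested features. Its log2 fold change was -0.097 (SE 0.0652, adjusted p = 0.228; 95% interval -0.24 to 0.049). With scaling by library totals alone it was called, at -0.22 (adjusted p = 0.0257), and clr4 turned to -0.084.

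The gene of the main reader of the mark fell. Swi6 is the HP1 protein that binds methylated histone H3 and spreads heterochromatin, and swi6 (SPAC664.01c, chromosome I) was at 46.8, 50.1 and 66.3 CPM in the wild type and at 31.6, 35.2 and 35.8 CPM in the mutant. The groups did not overlap, and wild-type replicate 3 was the highest library. The mean level of swi6 fell from 54.4 ± 10.4 to 34.2 ± 2.30 CPM (mean ± SD, n = 3 each), which is 37.1% less. On the log2 scale the change was -0.67 (SE 0.128, adjusted p = 0.00202). With all libraries this was the lowest log2 fold change of the 10 genes, and without wild-type replicate 3 that of rdp1 was lower, at -0.58 against -0.51. The call of swi6 held there and in each of the other alternatives run.

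The 3 genes of RITS, the complex that carries small RNAs to chromatin, did not move together. The Argonaute gene ago1 (SPCC736.11, chromosome III), whose protein holds the small RNA, was at 92.0, 87.0 and 82.3 CPM in the wild type and at 119.7, 121.0 and 119.8 CPM in the mutant. Every mutant value of ago1 exceeded every wild-type value, and the mutant libraries differed little, with a coefficient of variation of 0.619% against 5.57% in the wild type. This difference in spread, from 3 libraries a group, was not tested. The mean rose 1.38-fold, from 87.1 ± 4.85 to 120.2 ± 0.744 CPM, or by 0.46 on the log2 scale (SE 0.0595, adjusted p = 0.00023). This was the only rise called among the 10 genes and the lowest adjusted p.

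Chp1 is the chromodomain subunit that ties RITS to methylated histone H3. Its gene chp1 (SPAC18G6.02c, chromosome I) was at 22.5, 23.4 and 27.5 CPM in the wild type and at 18.4, 19.8 and 20.7 CPM in the mutant. The groups did not overlap, and chp1 changed by -0.31 on the log2 scale (SE 0.116, adjusted p = 0.0417). This call was the least secure of the 5, since leaving out a single library ended it, wild-type replicate 1 excepted, with adjusted p between 0.0623 and 0.134, and without wild-type replicate 3 the value was -0.23. Tas3 is the GW protein that bridges Ago1 and Chp1, and tas3 (SPBC83.03c, chromosome II) was at 13.5, 16.4 and 20.7 CPM in the wild type and at 11.6, 13.5 and 15.8 CPM in the mutant. The groups overlapped. The log2 fold change of tas3 was -0.31, of nearly the same size as that of chp1, with a larger SE of 0.176 (adjusted p = 0.158; 95% interval -0.70 to 0.084). It was called without wild-type replicate 1 (-0.45, adjusted p = 0.036).

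Of the genes that make the small RNAs, the polymerase gene fell and the Dicer gene was not called. The RNA-directed RNA polymerase gene rdp1 (SPAC6F12.09, chromosome I) was at 31.7, 34.7 and 38.5 CPM in the wild type and at 20.3, 22.9 and 23.9 CPM in the mutant. The groups did not overlap. The level of rdp1 fell from 35.0 ± 3.40 to 22.4 ± 1.85 CPM, which is 36.1% less or -0.65 on the log2 scale (SE 0.111, adjusted p = 0.0011), and the call held in every alternative run. The ribonuclease gene dcr1 (SPCC188.13c, chromosome III) was at 66.2, 70.0 and 55.9 CPM in the wild type and at 69.8, 64.7 and 64.1 CPM in the mutant. The mutant values lay within the wild-type range. Its log2 fold change was 0.046 (SE 0.0884, adjusted p = 0.675; 95% interval -0.15 to 0.24), and it turned to -0.047 without wild-type replicate 3.

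The namesake of rdp1, deb1 (SPAC1B1.01), went the other way. It was at 155.6, 154.7 and 165.4 CPM in the wild type and at 204.1, 196.8 and 187.5 CPM in the mutant, higher by 0.31 on the log2 scale (SE 0.0574, adjusted p = 0.00175). Counting it as rdp1 would have turned the direction for that name.

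The 2 genes of SHREC also differed from each other. Clr1 is a zinc finger protein that links the parts of the complex, and clr1 (SPBC2D10.17, chromosome II) was at 28.8, 28.5 and 35.3 CPM in the wild type and at 22.5, 20.9 and 21.5 CPM in the mutant. The groups did not overlap. The level of clr1 fell from 30.9 ± 3.85 to 21.7 ± 0.81 CPM, which is 29.8% less or -0.51 on the log2 scale (SE 0.113, adjusted p = 0.00418). Clr3 is the histone deacetylase itself, and clr3 (SPBC800.03, chromosome II) was at 107.8, 97.9 and 93.0 CPM in the wild type and at 103.7, 97.7 and 95.8 CPM in the mutant. The groups overlapped almost fully. The log2 fold change of clr3 was -0.0076 (SE 0.069, adjusted p = 0.935), and its 95% interval of -0.16 to 0.15 spans folds of 0.894 to 1.11.

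The authors' deposited table called 4 of the 10 genes at an adjusted p under 0.05. In the authors' deposited table ago1 was higher, with a log2 fold change of 0.50, and swi6, rdp1 and clr1 were lower, at -0.63, -0.60 and -0.47. The authors' deposited table had chp1 at -0.27 with an adjusted p of 0.103.

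Ratios of counts between 2 genes of the same library do not depend on the scaling of the library. They use the same counts as the single-gene changes above, so they are not separate evidence for them. The count of ago1 was 4.09, 3.72 and 2.99 times that of chp1 in the wild-type libraries and 6.49, 6.11 and 5.78 times in the mutant libraries. The groups of this ratio did not overlap, and it differed 1.71-fold between them (log2 difference 0.78, SE 0.142). The ratio of ago1 to tas3 was 6.81, 5.30 and 3.97 in the wild type and 10.3, 8.98 and 7.60 in the mutant, a 1.70-fold difference (log2 0.77, SE 0.258). The ratio of chp1 to tas3 was 1.66, 1.42 and 1.33 in the wild type and 1.59, 1.47 and 1.31 in the mutant. Those groups overlapped, with a log2 difference of -0.011 (SE 0.125). Both ratios with ago1 were higher in every mutant library, while that of chp1 to tas3 was not resolved from its replicate spread.

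The ratio of ago1 to rdp1, which sets the only gene called higher over a gene called lower, showed the largest difference of the 8 ratios computed. It was 2.90, 2.50 and 2.14 in the wild type and 5.90, 5.29 and 5.02 in the mutant, a 2.16-fold difference (log2 1.11, SE 0.144). The ratio of dcr1 to rdp1 was 2.09, 2.01 and 1.45 in the wild type and 3.44, 2.82 and 2.68 in the mutant, a 1.62-fold difference. In both ratios the mutant range lay wholly above the wild-type one. The ratio of clr3 to clr1 was 3.74, 3.43 and 2.63 in the wild type and 4.60, 4.66 and 4.45 in the mutant, a 1.41-fold difference. The ratio of swi6 to clr4 was 2.11, 2.29 and 3.04 in the wild type and 1.30, 1.74 and 1.56 in the mutant, so the mutant ratio was 0.621 of the wild-type one. The mutant libraries all lay below the wild-type ones. The ratio of clr4 to rik1, both of CLRC, was 0.376, 0.340 and 0.354 in the wild type and 0.415, 0.348 and 0.408 in the mutant, and the groups overlapped.

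An exact two-sided permutation test gave p = 0.1 for each of the 6 ratios whose groups did not overlap, which is the smallest p that 3 against 3 libraries allow. Its p was 0.3 for clr4 to rik1 and 0.9 for chp1 to tas3, in exact permutations. Adjusted over the 8 ratios, the smallest of these exact permutation p-values was 0.133, so none passed 0.05. In the 6 ratios wild-type replicate 3 was the wild-type library farthest from the mutant ones. Without it the differences were 1.57-fold for ago1 to chp1, 2.0-fold for ago1 to rdp1, 1.28-fold for clr3 to clr1 and 0.692-fold for swi6 to clr4.

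**Figure D2:**
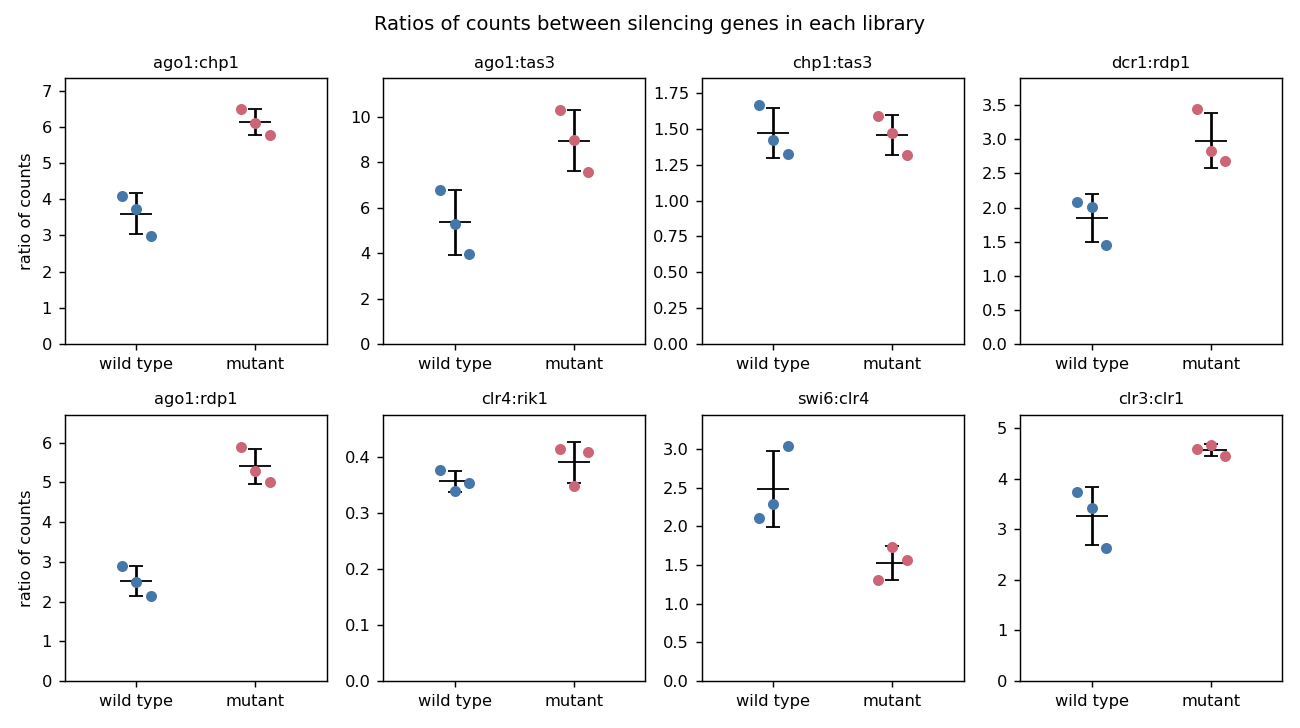
Ratio of counts between 2 silencing genes (vertical axis, from 0) in each of the 3 wild-type and 3 mutant libraries, with group mean (dash) and SD (bar). The mutant points of ago1:rdp1 lie between 5.02 and 5.90 above wild-type points of 2.14 to 2.90, while the points of chp1:tas3 overlap.

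Levels can be compared between genes only per length. As CPM per kb of mRNA, with lengths from the RefSeq annotation of assembly ASM294v3, the wild-type order was led by clr3 at 40.6 ± 3.08, ago1 at 33.2 ± 1.85 and swi6 at 32.1 ± 6.17. The wild-type range of swi6 overlapped those of both clr3 and ago1, which did not overlap each other. Next came rik1 at 15.3 ± 0.649 and dcr1 at 11.4 ± 1.30, with ranges that overlapped neither each other nor any other gene. The genes rdp1 at 8.66 ± 0.842, tas3 at 7.77 ± 1.67, clr1 at 7.64 ± 0.951 and chp1 at 6.91 ± 0.759 followed. Of these 4, the range of chp1 did not reach that of rdp1, and all other pairs overlapped. The lowest was clr4 at 4.97 ± 0.0472 CPM per kb of mRNA.

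In the mutant, ago1 led the order at 45.9 ± 0.284 CPM per kb of mRNA, ahead of clr3 at 40.4 ± 1.67, and the 2 ranges did not overlap. Per kb of coding sequence this lead was gone, with ago1 at 47.98 ± 0.297 and clr3 at 47.99 ± 1.99 CPM per kb. In the order per kb of mRNA, swi6 came next, at 20.2 ± 1.36. The genes tas3 at 6.26 ± 0.956, chp1 at 5.56 ± 0.325, rdp1 at 5.53 ± 0.457, clr1 at 5.36 ± 0.20 and clr4 at 5.10 ± 0.462 closed the order. The place of clr4 rests on its long annotated transcript. Per kb of coding sequence in the wild type, clr4 stood sixth of the 10, at 14.9 ± 0.142 CPM per kb, and swi6 came first at 55.1 ± 10.6. In the mutant, clr4 was at 15.3 ± 1.38 and swi6 at 34.6 ± 2.33 CPM per kb of coding sequence, with swi6 below ago1 and clr3. The lengths need not be those of the annotation the authors counted with.

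The number of reads on a gene, which grows with its length as well as its level, bears on the test. By this measure, over all 6 libraries, the genes called lower lay below the coding median, as did clr4 and tas3, which were not called. Of the 10 genes, 6 had a mean below the median of the tested coding genes, 53.7 CPM (clr4, chp1, tas3, clr1, rdp1 and swi6), and 4 of these were called lower and 0 higher. Of the other 4 (rik1, dcr1, clr3 and ago1), 0 were lower and 1 was higher. This mean takes in the mutant libraries, so a fall itself lowers it. In the wild type alone swi6 was at 54.4 CPM, above 53.7 CPM, and in the mutant at 34.2 CPM. A split by wild-type CPM was not made. Per kb of mRNA, the split was less clear. At the coding median of 29.1 CPM per kb over all libraries, ago1 and clr3 alone lay above, and 4 of the 8 genes below were lower, against 41.6% of the coding genes below it. By the wild-type libraries alone, swi6 lay above the coding median of 29.6 CPM per kb, and 3 of the 7 genes below were lower, against 38.7% of coding genes. Among all 2476 coding genes below the median CPM, 45.7% were called lower, 13.4% higher and 59.1% either way. The groups did not overlap in 68.5% of them, with the mutant below in 51.5%, so the falls among the silencing genes of lower CPM are to be read against that share. In those 2476 coding genes, wild-type replicate 3 deviated by a median of 0.16 (log2) from the mean of its group, and their median log2 fold change was -0.30. Wild-type replicate 3 lay above the mean of wild-type replicates 1 and 2 by 0.45 (log2) in swi6, 0.21 in rdp1, 0.30 in clr1, 0.26 in chp1 and 0.48 in tas3. It lay below it in ago1, at -0.12, in dcr1, at -0.28, and in clr3, at -0.14. The part of this library and of the read number in the falls was not tested. Against wild-type replicates 1 and 2 alone, the log2 difference of the mutant mean was -0.50 in swi6, -0.57 in rdp1, -0.40 in clr1, -0.22 in chp1 and 0.43 in ago1.

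**Figure D3:**
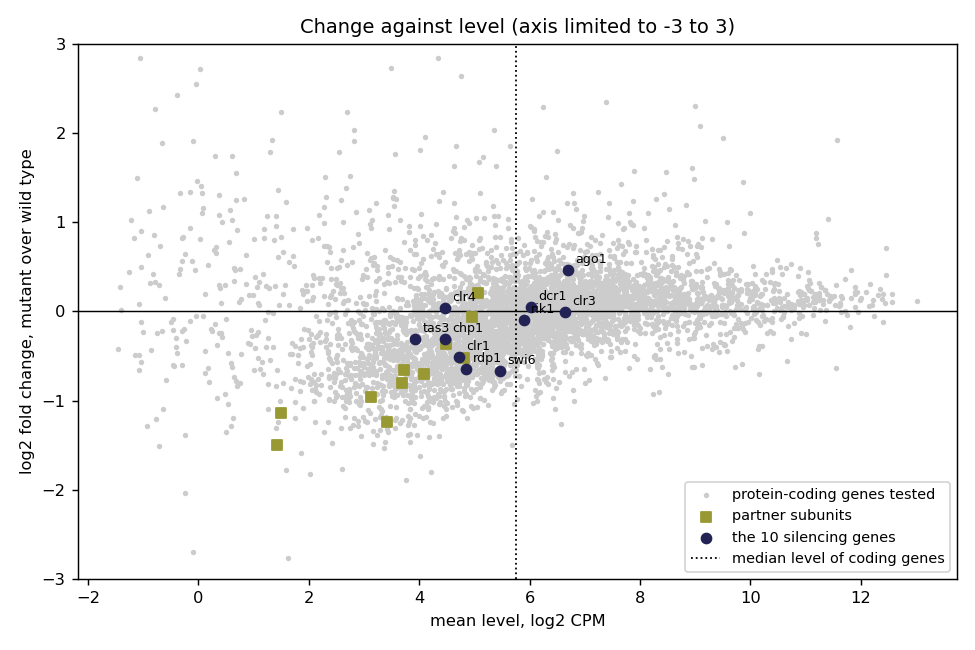
log2 fold change of the mutant over the wild type (vertical axis, limited to -3 to 3, so genes beyond it are not drawn) against the mean level in log2 CPM (horizontal axis) for all tested coding genes (grey), the 10 silencing genes (circles, named) and the partner subunits (squares). The silencing genes that fell lie left of the dotted line at the median CPM of coding genes, in a range where 45.7% of coding genes were called lower. The mean includes the mutant libraries, so a fall itself moves a gene to the left.

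The partner subunits of these proteins, 11 genes listed by complex, fell in most cases. In edgeR's test 9 were lower and 0 higher (81.8% lower). Their median change was -0.70 on the log2 scale, and all 11 lay below the median CPM of coding genes, where 45.7% were called lower. The median level of the partners was 13.2 CPM, against 20.7 CPM among those coding genes. The part of level and of wild-type replicate 3 in the falls of the partners was not tested. The largest fall was in stc1, whose LIM-like protein links RITS to CLRC, from 3.94 ± 0.706 to 1.40 ± 0.25 CPM (log2 fold change -1.49). The Argonaute-binding genes arb1 and arb2, of the chaperone complex ARC in which Ago1 also sits, were at -1.24 and -1.14, from 14.9 ± 2.71 to 6.32 ± 0.622 CPM and from 3.88 ± 0.50 to 1.76 ± 0.117 CPM. The second HP1 gene, chp2, which works with SHREC, was at -0.96.

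By complex, RDRC had all 3 of its genes lower: rdp1, the helicase gene hrr1 at -0.81 and the nucleotidyltransferase gene cid12 at -0.37. The call of cid12 was lost without mutant replicate 1, without mutant replicate 2 and without wild-type replicate 2 (adjusted p 0.0530 to 0.112). Of the 5 CLRC genes described, 2 were lower: raf2, for assembly of the ligase, at -0.70, and the RING subunit gene rbx1 at -0.52. The cullin gene pcu4 was not called, at 0.20 (adjusted p = 0.204), like clr4 and rik1. SHREC had 3 of 5 lower, namely clr1, chp2 and the remodeller gene mit1 at -0.66, while clr2 was at -0.061 (adjusted p = 0.587) and clr3 was not called. ARC had 2 lower and ago1 higher. Over these 5 complexes, with ago1 counted once, 18 genes gave 11 lower and 1 higher, beside 28.4% lower and 26.7% higher among all features and 45.7% lower among coding genes below the median CPM.

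**Figure D4:**
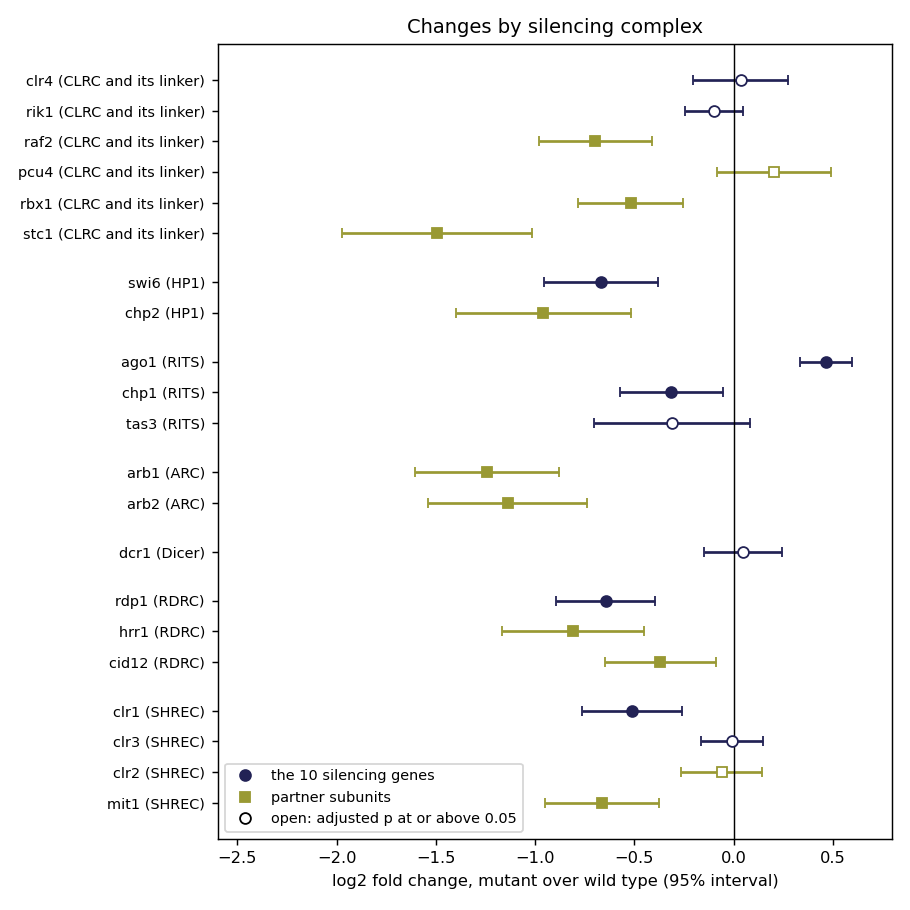
log2 fold change (mutant over wild type, horizontal axis) with its 95% interval for the 10 silencing genes (circles) and their 11 partner subunits (squares). The groups are those named beside the genes. Here chp2 stands with swi6 under HP1, stc1 with CLRC and ago1 under RITS, while the text counts chp2 in SHREC and ago1 also in ARC. Open symbols did not pass an adjusted p of 0.05. The filled symbols lie left of 0 except that of ago1 at 0.46, and stc1 lies farthest left at -1.49.

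Of 24 other genes known in heterochromatin assembly, 12 were lower and 4 higher (50% and 16.7%), beside 28.4% and 26.7% of all features. The median change of the list was -0.21 on the log2 scale. Of the 24, 15 lay below the median CPM of coding genes, where 45.7% were lower and 13.4% higher. The largest falls were cbh2, for a CENP-B homologue, at -0.89, the telomere-binding genes rap1 at -0.88 and taz1 at -0.80, and the RNAi factor gene ers1 at -0.79. The siRNA nuclease gene eri1, which counteracts RNAi, was at -0.64, a call lost without mutant replicate 1 (adjusted p = 0.0669). The shelterin gene poz1 was higher, at 0.75, from 23.1 ± 9.51 to 38.8 ± 2.54 CPM. That call was lost with library totals alone, without mutant replicates 2 or 3 and without wild-type replicate 2 (adjusted p 0.0545 to 0.0768). Without mutant replicate 1 the list had 6 lower, and with library totals alone it had 2 higher.

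A list of 7 genes that oppose silencing or act on a protein that does is called the anti-silencing genes here. Of the 7, 4 were higher and 1 was lower, beside 26.7% and 28.4% of all features, and their median log2 change was 0.18. In the list, ddb1 and cdt2 act in degrading the anti-silencing protein Epe1, so their changes do not count as changes of opponents of silencing. Of the 7, 2 lay below the median CPM of coding genes, where 13.4% were higher and 45.7% lower. The acetyltransferase gene mst2, whose complex keeps heterochromatin from spreading, had 82.3 ± 28.3 CPM in the wild type and rose by 1.02 (log2) to 166 ± 3.72 CPM (adjusted p = 0.00155). Its wild-type replicates 1 to 3 were at 60.6, 71.9 and 114.3 CPM, so replicate 3 lay nearest the mutant. The JmjC protein gene epe1, at 0.25, the ubiquitin ligase adaptor gene ddb1, at 0.21, and the bromodomain gene bdf2, at 0.18, were called higher. With library totals alone these 3 calls were lost, which left 1 higher. The call of epe1 was also lost without mutant replicate 1 (0.0609), that of ddb1 without mutant replicates 1 or 2, and that of bdf2 without mutant replicates 2 or 3 or wild-type replicates 1 or 2. The gene cdt2, whose product works with Ddb1 in degrading Epe1, had 61.6 ± 3.84 CPM in the wild type and fell to 40.7 ± 3.22 CPM (log2 -0.60, adjusted p = 0.000388).

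The genome around the silencing genes was described from the order of the counted features in RefSeq ASM294v3. Of 28 features directly beside or overlapping the 10 genes, 23 were tested, with 6 higher, 8 lower and 9 not called. The shares over all features, 26.7% higher and 28.4% lower, are near these counts, so the neighbours are given below as values, with nothing particular to them shown. Downstream of ago1 and pointing towards it lies mmi1, for the RNA-binding protein that removes meiotic mRNAs. It was at 103.5, 105.1 and 111.4 CPM in the wild type and at 136.7, 136.5 and 129.4 CPM in the mutant (log2 fold change 0.33, adjusted p = 0.00112). Both genes of this convergent pair therefore rose. The feature upstream of ago1, SPNCRNA.464, was not detected (0 counts in each of the 6 libraries), and the limit of 3 counts that a 0 allows is 0.111 to 0.134 CPM.

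Beside rdp1 the directions differed. The divergent upstream gene exo84, for an exocyst subunit, had 13.7 ± 3.64 CPM in the wild type and fell by 1.19 (log2) to 5.98 ± 0.907 CPM, and the convergent downstream gene ade3, of purine synthesis, rose by 0.33 (log2), from a mean of 693 to 868 CPM. At clr1, the histone-fold protein gene mhf1, which overlaps it on the same strand over 1.41% of the span of clr1, was at -0.96, and the downstream same-strand gene abc1 was at -0.62. The antisense feature of abc1, which overlaps 1.56% of the span of clr1 on the other strand, had 4.09 ± 0.834 CPM in the wild type and rose to 8.72 ± 0.804 CPM (adjusted p = 0.000794). The antisense feature of mhf1, over 1.71% of the span of clr1 on the other strand, was not called (-0.043, adjusted p = 0.874). Nor was the divergent upstream gene pth1 (-0.029, adjusted p = 0.897). Both same-strand neighbours of clr1 thus fell, as it did, while those on the other strand rose in 1 case only. The part of strand in these changes was not tested.

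Several silencing genes share their span with a feature of the other strand. The library kit marks strand, but no source used here states the strand setting of the counting, so counts of such pairs may not be fully separate. All of meu6 lies within the span of clr4, and meu6 was not called (log2 fold change 0.18, adjusted p = 0.460). Without wild-type replicate 3 it was called higher, at 0.46 (adjusted p = 0.0162), while clr4 was called in none of the alternatives. Of spn6, 97% lies within dcr1, and spn6, a septin gene, had 2.17 ± 0.333 CPM in the wild type and fell to 0.934 ± 0.131 CPM (-1.20 on the log2 scale), while dcr1 was not called. SPCC11E10.09c covers 91.9% of the span of rik1 and was at 0.039 (adjusted p = 0.868), and without wild-type replicate 3 it was called higher, at 0.29 (adjusted p = 0.0352). SPNCRNA.1200, over 8.11% of the span of rik1, was at -0.68, a call lost without mutant replicates 1 or 2 and without wild-type replicates 2 or 3 (adjusted p 0.0513 to 0.111). The feature clr3-antisense-1, which covers all of clr3, was at 0.644, 0.777 and 0.846 CPM in the wild type and at 1.598, 0.891 and 0.861 CPM in the mutant. All mutant values of clr3-antisense-1 lay above the wild-type ones, as in 31.3% of all features, and it was not called (0.55, adjusted p = 0.148).

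Other neighbours that were called lay apart from the silencing genes. At clr4, the downstream same-strand gene rxt2, of a histone deacetylase complex, was at 0.38 and the divergent SPNCRNA.1361 at -0.83, a call lost without mutant replicate 2 (adjusted p = 0.0628). The convergent gene of tas3, ucp8, was at -0.31, and that of dcr1, prp45, a splicing factor gene, at -0.54, a call lost without mutant replicates 1 or 2 (adjusted p 0.0591 and 0.0642). Upstream of clr3, whi5 was at 0.69. Downstream of rik1, SPRRNA.04, a ribosomal RNA copy whose reads may be split among copies, was at 1.59. The neighbours of swi6 were too low to be tested, with at most 3 counts in a library.

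**Figure D5:**
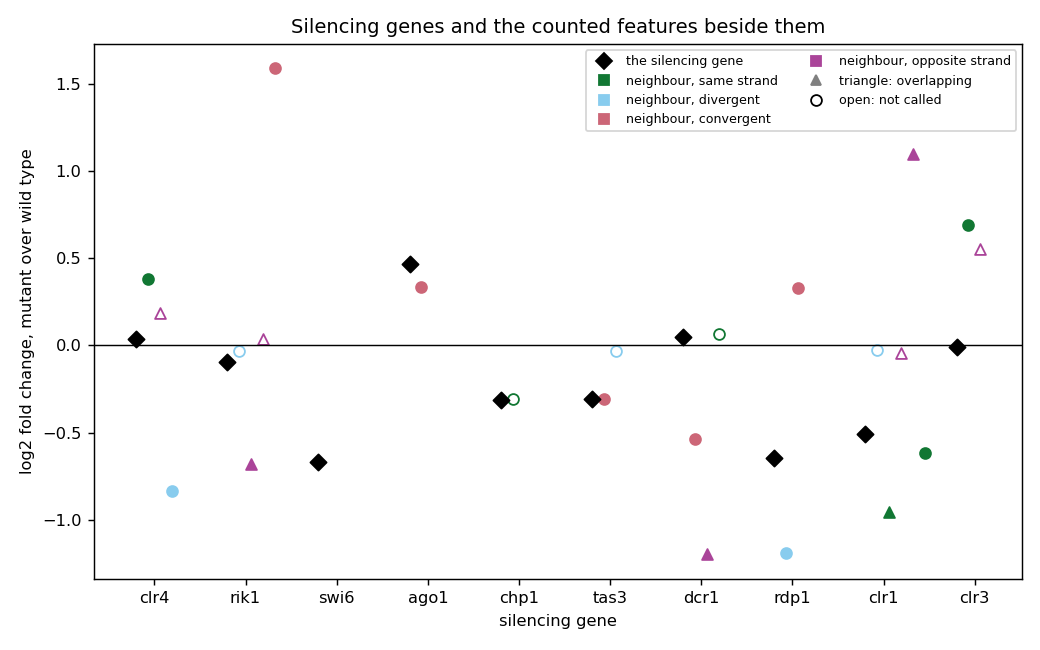
log2 fold change of the mutant over the wild type (vertical axis) for each silencing gene (diamond) and the tested features beside it (circles) or overlapping it (triangles), coloured by orientation; open circles and triangles were not called, and diamonds are filled whether called or not. The convergent neighbour of ago1 lies above 0 with it, at 0.33, and the divergent neighbour of rdp1 lies at -1.19.

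Features in or near regions that heterochromatin covers were taken by name and by the identifiers of subtelomeric clones. The list also holds well-expressed genes, such as SPAC977.14c at 425 CPM and nhe1 at 136 CPM in the wild type. Of 99 such features, 15 had 0 counts in every library and 47 were tested, with 15 higher (31.9%) and 11 lower (23.4%), against 26.7% and 28.4% of all features. Of the 47, 38 lay below the median CPM of coding genes, where 13.4% of coding genes were higher and 45.7% lower. The part of level in these counts was not tested. Their median log2 fold change was 0.21. The features with the largest changes had low levels: SPAC212.08c rose by 2.72 (log2) from 0.26 ± 0.113 CPM to 1.77 ± 0.118 CPM, SPAC186.03 was at 2.27, SPAC212.07c at 2.03 and SPBCPT2R1.04c at 1.25. SPBPB2B2.01 fell from 7.85 ± 0.906 to 2.83 ± 0.633 CPM (-1.48).

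The subtelomeric helicase gene tlh2, which carries a sequence like the centromere repeats, had 57, 42 and 17 counts in the wild type and 9, 7 and 2 in the mutant. Every mutant count of tlh2 was below every wild-type count (log2 fold change -2.69, adjusted p = 0.00225). Its near-identical copy tlh1 had at most 1 count in each library and was not tested, and reads shared by the copies make both counts uncertain. The silent mating-type gene mat3-Mc had 0 counts in every library, as did its copy mat1-Mc. Reads shared by these copies may also have gone uncounted, so the 0 does not show whether the gene was silent. Transcripts of the centromere repeats were not analysed here.

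The tested features most like ago1, the silencing gene with the lowest adjusted p, were sought by the distance of their log2 CPM, centred per feature, over the 6 libraries. The nearest 3 were erg6, of ergosterol synthesis, at a distance of 0.0434, the zinc-responsive repressor gene loz1 at 0.0567 and ade8, of purine synthesis, at 0.0618. Their log2 fold changes were 0.44, 0.45 and 0.46. Among the 10 silencing genes themselves, the nearest pair was swi6 and rdp1, at a distance of 0.201. These distances describe 6 libraries in 2 groups, and any feature with a like change between the groups scores well.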

How the data were processed

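The authors deposited raw counts per annotated feature for 6 libraries, per the file headers. Build ASM294v2 is listed in the submitters' processing notes, with the tools DESeq2, HTSeq 0.10.0, HISAT2 2.1.0 and SAMtools. No source used here states the strand setting. Another deposited table, per the file headers, holds the authors' log2 fold changes with SE, p-values, a test score (the Wald statistic), and averages as a signal (counts over size factors).

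The 6987 rows gave 6986 features, since 1 identifier stood on 2 rows, which were summed. edgeR 4.0.16 (R 4.3.3) tested mutant against wild type by a two-sided quasi-likelihood test after TMM scaling. filterByExpr (minimum count 10) left 6046 features, with 4 residual degrees of freedom. Adjustment was Benjamini-Hochberg over all of them, and a call is an adjusted p under 0.05. The procedure was tested on simulated data. Alternatives included DESeq2 1.42.0. One count corresponds to 0.0371 to 0.0445 CPM, and intervals cover the spread between libraries. No 2 libraries of a group agreed within sampling noise (lowest chi-square per degree of freedom 3.87). Orientation, overlap and length came from RefSeq ASM294v3, which matched 6833 identifiers; as the build differs, no coordinates or sequences are given. In the list of other assembly factors the CENP-B homologue was taken under its common name, cbp1.

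The 10 genes and all lists were chosen with earlier results of these data known. Genes named are the 10, features antisense to or beside them, up to 6 called genes per list by size of change (for the complexes, all partners listed; 1 is not reported here), seb1, deb1 and the 3 features most like ago1; uncalled genes, tlh1 and mat3-Mc were named after their values were seen.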

Additional observations from a re-analysis of the deposited data

How the results depend on the processing

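Across 12 alternatives (2 scalings, DESeq2, 2 filters, a replicate block and the 6 libraries left out in turn), swi6, rdp1 and clr1 stayed lower and ago1 higher with their calls, the count of silencing genes called higher was 1 throughout, and the count called lower was 3 to 5. The total of called features was 2522 to 3906. When library totals alone set the scale, the median log2 fold change over all features shifted by -0.118, and 33.4% of calls were higher instead of 48.5%. Under it clr4 was at -0.084, dcr1 at -0.072 and SPCC11E10.09c at -0.086, each reversed, rik1 was called, 2 other assembly factors were higher instead of 4, and 1 anti-silencing gene instead of 4. With a library left out, clr4 ranged from -0.023 (without mutant replicate 1) to 0.11, dcr1 from -0.047 (without wild-type replicate 3) to 0.11, clr3 from -0.058 to 0.052 (without wild-type replicate 1; also above 0 without mutant replicates 2 or 3), SPCC11E10.09c from -0.11 (without wild-type replicate 1; also below 0 without wild-type replicate 2) to 0.29, and the log2 difference of the chp1 to tas3 ratio from -0.083 to 0.081 (without wild-type replicate 1; also above 0 without mutant replicate 3). The cause was not tested. None of these was called with all libraries, and of them only SPCC11E10.09c was called with a library left out (0.29, adjusted p = 0.0352, without wild-type replicate 3).

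With a library left out, the partner subunits had 0 to 1 higher (1 without wild-type replicate 3) and 8 to 9 lower, the other assembly factors 2 to 4 higher and 6 to 13 lower, the anti-silencing genes 2 to 4 higher and 1 to 2 lower. DESeq2 gave 2 anti-silencing genes lower, as did the replicate block. With at least 50 counts in 3 libraries, 8 features in or near silent regions were higher, since fewer were tested. The replicate numbers were not shown to pair the libraries: the deviations of same-numbered libraries correlated at 0.357, 0.0585 and 0.263, and mutant replicate 2 correlated best with wild-type replicate 3 (0.0658). With the replicate block 3906 features were called instead of 3328, and tas3 was called (-0.30, adjusted p = 0.0235). Alternatives for ratios, lengths, the split by level and genes other than the 10 were chosen after seeing the data. With 3 libraries a group, depth leaves features near 1 CPM with few counts.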
